A study of Mus musculus with 3 samples.

Results

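The glial cell line-derived neurotrophic factor (GDNF) family was described here through 8 genes: the ligand genes Gdnf, Nrtn (neurturin) and Artn (artemin), the co-receptor genes Gfra1, Gfra2, Gfra3 and Gfra4, and the receptor tyrosine kinase gene Ret. The genes were found by symbol, and each matched 1 of 33696 features in both tendon libraries and 1 of 35980 in the ganglion library. The members were chosen by family name, with UMI levels measured in these same libraries already known, so their levels are given as a description, with no test. The series asks how sensory nerves bear on tendon degeneration, and it was measured with 10x Genomics Chromium single-cell RNA sequencing. In this droplet method a transcript is tagged with a unique molecular identifier (UMI) and a cell with a barcode.

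All mice were C57BL/6. For the neurectomy library, the sural nerve, which carries sensation from the lower hind limb, was cut 1 week before the ankle was held in dorsiflexion for 4 weeks, a model of tendon overstrain, and Achilles tendon was then taken. The sham library came from Achilles tendon of mice in which the nerve had been exposed only, with the same 4 weeks of dorsiflexion, so neither group was an unloaded control. Each tendon group had 5 mice, and how they were combined is not stated. The ganglion library pooled 18 dorsal root ganglia (DRG) from 6 mice, taken 4 weeks after 5 µL of AAV-PHP.S-tdTomato, an adeno-associated virus carrying a red fluorescent reporter, was placed in the left Achilles tendon sheath at 4 weeks of age. The labels differ on whether ganglia of both sides or of the injected side were taken, and 1 of them calls the virus lentiviral.

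Because each condition had 1 library, no comparison between conditions has a replicate check. Intervals in parentheses are exact 95% intervals and cover counting error only. The neurectomy, sham and DRG libraries held 25067, 32951 and 23566 barcodes with medians of 1212, 1065 and 3422 UMIs, and 21992, 25306 and 21819 barcodes entered after filters. Pairs of libraries shared between 116 and 569 barcode sequences after filters. The sham library carried 6366 UMIs of 4 Y-linked genes and the neurectomy library 39, while Xist was counted 61571 and 55528 times, so the sham pool held mice of both sexes and the neurectomy pool almost no male transcripts. Sex and operation therefore cannot be told apart, except in part where sham barcodes were split by these transcripts. That split needs a UMI of the transcript, so it can favour deeper barcodes, and it was not applied to neurectomy barcodes. Ratios against sham barcodes with Xist and no Y-linked UMI therefore do not hold depth equal. The 23 Xist and 49538 Y-linked UMIs of the DRG library came from almost wholly male ganglia.

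GDNF family ligands are secreted dimers that bind a GFRα co-receptor held on the cell surface by a lipid anchor, and the complex then activates RET. In the textbook pairing, GDNF binds GFRα1, neurturin GFRα2, artemin GFRα3 and persephin GFRα4, with some cross-binding. In sensory ganglia, the family is known for keeping alive and shaping the neurons that do not depend on nerve growth factor in the adult, and Schwann cells are known as a source of ligand and a site of co-receptor expression in nerve.

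Barcodes were assigned to cell classes by fixed marker lists that hold no member of the family. A class was given where at least 3 of its markers were present and its score was at least 1.5 times that of the next class, which assigned 44.1% of the neurectomy, 61.4% of the sham and 88.7% of the DRG barcodes. Such a class is a range of a score: 28.2%, 30.4% and 12.7% of barcodes had the needed markers and a lead near the cut, within the range of leads tried as alternatives. The DRG library held 3375 neurons with a median of 48014 UMIs, of which 2391 (70.8%) fell in a neuron subtype. Levels are UMIs per 1000000 UMIs of the class (CPM), which compare classes for 1 gene and not genes with each other. Tendon libraries were counted over 33696 features and the ganglion library over 35980, and their sex makeup differs. Levels in tendon and ganglia are therefore not measured alike. Library medians differed within classes: Pi16 fibroblast barcodes had 4746 UMIs after neurectomy and 16297 in sham, stromal fibroblast barcodes 2397 and 9079, and macrophage barcodes 1717 and 9152, against 1518 and 1344 for tenocytes.

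Ligand transcripts were scarce in every gated class. Gdnf, the founding ligand, was densest, among tendon classes with at least 100 barcodes in both libraries, in the synovial lining, the Prg4-expressing layer: 27 UMIs in 11 of 340 barcodes after neurectomy (12.7 CPM, 8.39 to 18.5) and 42 UMIs in 7 of 156 barcodes in sham (19.7 CPM, 14.2 to 26.6). Few cells carried these counts, since 1 sham barcode alone held 18 of the 42. The synovial ratio of neurectomy to sham was 0.647 (0.384 to 1.07), and it was 1.82 as a ratio of mean CPM over barcodes, so its direction depended on how barcodes were weighted.

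In the much larger tenocyte gate, the Tnmd- and Scx-expressing cells that build tendon matrix, Gdnf stood at 3.29 CPM (2.65 to 4.03, 93 UMIs in 55 of 6007 barcodes) after neurectomy. In sham tenocytes it stood at 1.51 CPM (1.23 to 1.84, 101 UMIs in 73 of 12634 barcodes). The ratio was 2.17 (1.62 to 2.91), and it was 2.17, 3.94 and 2.08 in tenocytes of 500 to 2000, 2000 to 5000 and at least 5000 UMIs. The barcodes that fell in no class showed Gdnf at 4.06 and 1.33 CPM, a ratio of 3.06 (2.19 to 4.32). Gdnf was also present in the tendon Schwann gate with 6 UMIs in 82 barcodes after neurectomy and 4 UMIs in 37 barcodes in sham (18.4 and 17.8 CPM), and in mural cells with 3 and 7 UMIs. Muscle satellite cells, the stem cells of muscle, held 5 UMIs in 16 barcodes and 2 UMIs in 11 barcodes.

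RefSeq lists 5 of the 8 genes in its table of mouse promoters (GRCm38.p6), and both annotated starts of Gdnf are shown because this ligand differed between the tendon libraries while the counts do not tell its starts apart. The 250 bases upstream of each start are given 5′ to 3′ on the plus strand, with the motif TATAAA in capitals. The first lies at chr15:7809798-7810047 and the second at chr15:7813477-7813726.
Gdnf first start: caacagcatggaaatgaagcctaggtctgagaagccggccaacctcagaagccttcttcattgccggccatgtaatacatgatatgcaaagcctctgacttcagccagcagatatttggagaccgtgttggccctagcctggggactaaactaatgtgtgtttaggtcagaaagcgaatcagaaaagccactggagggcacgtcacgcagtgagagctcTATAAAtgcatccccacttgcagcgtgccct
Gdnf second start: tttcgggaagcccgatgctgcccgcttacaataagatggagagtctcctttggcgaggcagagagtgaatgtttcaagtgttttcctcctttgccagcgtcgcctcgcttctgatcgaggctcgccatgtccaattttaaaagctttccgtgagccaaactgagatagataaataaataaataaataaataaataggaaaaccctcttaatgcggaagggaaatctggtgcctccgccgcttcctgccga
TATAAA begins 31 bases before the first start and is not found, on either strand, before the second or before the listed starts of Nrtn, Artn, Gfra1 and Gfra4. Of 32851 mouse promoters of the same length, 12.4% held the motif on either strand and 7.59% on the gene's own strand.

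In the ganglia, Gdnf was close to absent from glia (0 UMIs in 4269 satellite glia and 1 in 7181 myelinating Schwann barcodes) and stood at 2.37 CPM (1.40 to 3.74) in fibroblasts and 2.58 CPM (0.703 to 6.61) in mural cells. Among neurons, 41 of its 54 UMIs lay in the peptidergic subtype, the nociceptors that make calcitonin gene-related peptide, in 35 of 929 neurons (3.77%). The Mrgprd, Mrgpra3, itch and C-LTMR subtypes held 0 Gdnf UMIs.

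Nrtn showed a different distribution. In tenocytes it stood at 2.72 CPM (2.15 to 3.40) after neurectomy and 3.58 CPM (3.14 to 4.07) in sham, a ratio of 0.760 (0.580 to 0.986). Lymphatic endothelium had 4.59 CPM (9 UMIs) and 8.09 CPM (27 UMIs), the highest level of any tendon class with at least 100 barcodes in both libraries except the sham erythroid gate, where 4 UMIs gave 13.5 CPM. Within sham tenocytes, barcodes with Xist and no Y-linked UMI had 3.26 CPM of Nrtn and those with Y-linked UMIs and no Xist had 6.42 CPM, a ratio of 0.507 (0.371 to 0.702). Against only the sham barcodes with Xist and no Y-linked UMI, the neurectomy ratio was 0.835 (0.626 to 1.11), an interval that includes equal levels.

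Among gated ganglion neurons, Nrtn stood highest in a small group. The silent-type subtype, gated by Chrna3 and the serotonin receptor genes Htr3a and Htr3b, had 23.6 CPM (16.8 to 32.3), with a UMI in 16 of 43 neurons (37.2%), whereas the Mrgprd, Mrgpra3, itch, C-LTMR, peptidergic, Smr2 and Kit, and cold subtypes lay between 0.319 and 0.722 CPM. A gate for touch neurons, in which only 1 of its 4 markers was highest, had 16.2 CPM (10.8 to 23.2), with a UMI in 14 of 77 neurons (18.2%), and its interval overlaps that of the silent-type subtype. Proprioceptors held 3 Nrtn UMIs in 16 neurons (5.61 CPM, 1.16 to 16.4). Thinned to 5000 UMIs, 15% (5.71 to 29.8) of 40 silent-type and 9.76% (2.72 to 23.1) of 41 touch neurons had Nrtn. The silent-type level was 11.02 CPM in the 21 neurons gated among barcodes of at least 5000 UMIs, and a gate that required a 2-fold lead left 2 neurons, too few to place the subtype.

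Artn was the least counted ligand, with 13 UMIs in the whole neurectomy library, 36 in sham and 28 in the ganglia. Mural cells of the sham tendon held 6 of them, 1 in each of 6 of 104 barcodes (8.83 CPM, 3.24 to 19.2), and the 54 mural barcodes of the neurectomy library held 0, which allows up to 13.9 CPM at 3 counts. The difference was not detectable at this depth.

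Ret, the signalling receptor of the family, was found in 2797 of 3375 neurons (82.9%) at 333 CPM (331 to 336), against 1.94 to 6.44 CPM in satellite glia, both Schwann gates, fibroblasts, endothelium, mural cells and macrophages. Its highest level was in C-LTMR neurons, the Th- and Slc17a8-expressing fibres of gentle touch, at 614 CPM (602 to 626), with a UMI in 324 of 324 neurons. Mrgprd neurons, the non-peptidergic nociceptors of skin, followed at 429 CPM (423 to 434), Mrgpra3 neurons at 352 CPM (334 to 370) and peptidergic neurons at 257 CPM (252 to 262). Itch neurons, gated by Nppb and Sst, had 180 CPM, silent-type neurons 159 CPM and cold neurons, gated by the menthol receptor gene Trpm8, 100 CPM (87.9 to 114). Proprioceptors had 26.2 CPM in 16 neurons, and neurons with Smr2 and Kit had 15.2 CPM (9.38 to 23.2) in 32. Apart from itch and silent-type neurons, and proprioceptors and the Smr2 and Kit subtype, the intervals of these neighbours in the order did not overlap. The touch gate is left out of the order because of its markers and because its barcodes had a median of 8633 UMIs.

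**Figure D1:**
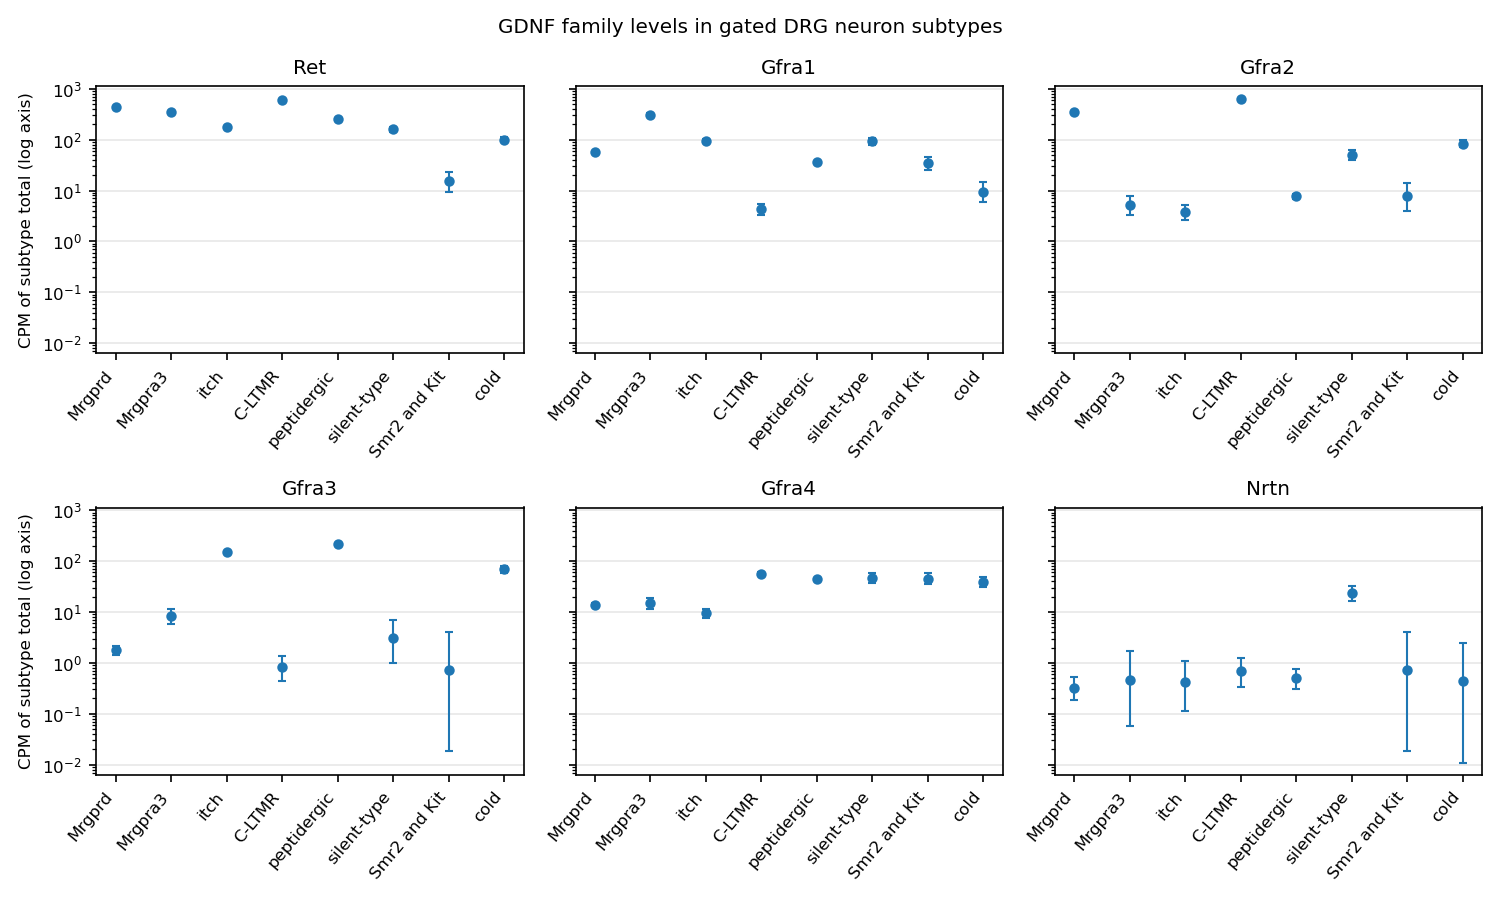
Levels of 6 members in 8 gated DRG neuron subtypes. Points give CPM of the subtype total on a log axis, and bars the exact 95% Poisson interval. Ret spans 15.2 to 614 CPM, Gfra1 is highest in Mrgpra3 neurons (309 CPM), Gfra2 in C-LTMR neurons (641 CPM), Gfra3 in peptidergic neurons (214 CPM) and Nrtn in silent-type neurons (23.6 CPM).

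Each of the first 3 co-receptor genes peaked in another subtype. Gfra1, the GDNF co-receptor, stood at 309 CPM (293 to 326) in Mrgpra3 neurons, a pruritogen-responsive class. Its nearest followers were itch neurons at 95.7 CPM (89.5 to 102), silent-type neurons at 92.0 CPM (78.0 to 108) and the touch gate at 85.3 CPM (72.3 to 99.9). Proprioceptors at 59.9 CPM and Mrgprd neurons at 57.3 CPM came next. Its lowest level was in C-LTMR neurons, at 4.25 CPM (3.30 to 5.39). Among single neurons, the 10th percentile of Mrgpra3 neurons was 190.5 CPM of Gfra1, above the median of every other subtype, the next of which was itch with 74.7 CPM.

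Gfra2, the neurturin co-receptor, was highest where Gfra1 was lowest. C-LTMR neurons had 641 CPM (629 to 654) with a UMI in every one of 324, and Mrgprd neurons 357 CPM (352 to 362) with a UMI in 98.1%. Cold neurons had 83.6 CPM (72.2 to 96.2), the touch gate 72.4 CPM (60.5 to 86.0) and silent-type neurons 49.7 CPM (39.5 to 61.6). Peptidergic, Mrgpra3, itch, and Smr2 and Kit neurons lay between 3.71 and 7.94 CPM, and the 16 proprioceptors held 1 UMI.

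Gfra3, the artemin co-receptor, stood high in 3 gated subtypes: peptidergic neurons at 214 CPM (210 to 219), itch neurons at 151 CPM (143 to 159) and cold neurons at 69.3 CPM (59.0 to 80.9). Mrgpra3 neurons, which had the most Gfra1, held 8.21 CPM of Gfra3, and the remaining subtypes 3.03 CPM or less. The peptidergic subtype was heterogeneous, with a 25th percentile of 91.2 CPM and a 75th percentile of 304 CPM of Gfra3 per neuron.

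Gfra4, the persephin co-receptor, was neuronal but spread widely. Neurons had 31.9 CPM (31.0 to 32.8), against 3.68 CPM in fibroblasts and 1.40 CPM or less in the glial gates. C-LTMR neurons had 56.6 CPM, proprioceptors 52.4 CPM (28 UMIs in 16 neurons), silent-type 46.6 CPM and Smr2 and Kit 45.5 CPM. Peptidergic neurons had 44.7 CPM, cold 39.4 CPM and the touch gate 25.6 CPM, and neighbouring intervals in this order overlapped. Mrgpra3, Mrgprd and itch neurons were lower, at 15.0, 14.0 and 9.53 CPM. The transcript of its ligand, persephin (Pspn), was counted 8 times in all 3375 neurons.

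To see which co-receptors met in 1 neuron at an equal depth, each neuron was thinned to 5000 UMIs, which left out 482 shallower neurons and kept 2893. At that depth 27.6% had no UMI of Gfra1, Gfra2 or Gfra3, 61.7% had exactly 1 of the 3 genes, 10.6% had 2, and 1 neuron had all 3. Gfra2 and Gfra3 were found together in 1.87% of neurons, where the product of their separate shares would be 9.32%. The same figures were 6.08% and 7.79% for Gfra1 with Gfra2, and 2.80% and 5.13% for Gfra1 with Gfra3. Across subtypes, the share with Gfra2 alone reached 92.3% in C-LTMR neurons and 66.6% in Mrgprd neurons, Gfra1 alone 73.2% in Mrgpra3 neurons and Gfra3 alone 52.5% in peptidergic neurons.

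Mixed detection was commonest in 3 subtypes. Mrgprd neurons had Gfra1 beside Gfra2 in 16.2%, near the product of the shares within the subtype (17.7%). Cold neurons had Gfra2 beside Gfra3 in 10.2% (product 9.77%), and itch neurons Gfra1 beside Gfra3 in 8.70% (product 11.9%). The share of neurons with both Ret and a co-receptor differed between subtypes, as did the separate shares of these genes. Of the thinned C-LTMR neurons, 88.0% had both Ret and Gfra2 and 6.48% had Gfra2 without Ret, where 92.9% had Ret and 94.4% Gfra2. Of the peptidergic neurons 37.9% had Ret and Gfra3 and 20.9% had Gfra3 without Ret, where 63.7% had Ret and 58.8% Gfra3. Pairing beyond these separate shares was not tested. In cold neurons, 22.0% had Gfra3 without Ret at 5000 UMIs, yet 93.2% had a Ret UMI at full depth, so a missing UMI at this depth does not show absence.

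**Figure D2:**
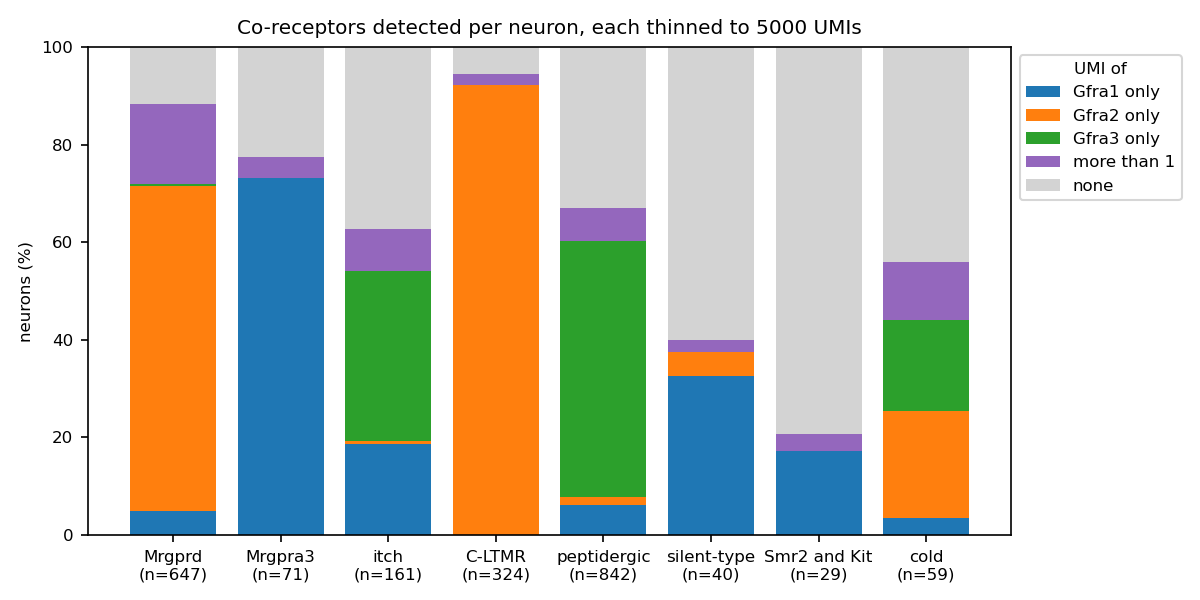
Share of neurons in each subtype with a UMI of Gfra1, Gfra2 or Gfra3 after thinning to 5000 UMIs, in percent, with the number of neurons under each bar. A single colour fills most of the C-LTMR (92.3% Gfra2 only), Mrgpra3 (73.2% Gfra1 only) and Mrgprd (66.6% Gfra2 only) bars, and 79.3% of Smr2 and Kit neurons have none.

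The genes most like each receptor across the 10 neuron subtypes were taken by Pearson correlation of log2(CPM + 10) among 5874 genes. These are descriptions over 10 points from 1 library. Gfra2 was followed most closely by Cdh1, the epithelial cadherin gene (r = 0.97), then by Agfg2 and Ppp1r35 (0.93 and 0.92). Gfra3 was followed by Riok3, Exoc6b and Rbm39 (0.96, 0.96 and 0.94), and Ret by Tmem60, Eif1ad and Tlx3, a transcription factor gene of sensory neurons (0.93, 0.92 and 0.92). Gfra1 had looser followers, Mgat3, Guk1 and Gorasp2 (0.88, 0.84 and 0.83).

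A transcript of the tendon-injected vector was found in 356 neurons, which are set beside the others here. It was also found in 0.538% of the gated non-neuronal barcodes. These shares are not at equal depth: the median was 48014 UMIs in neurons, 5439 in satellite glia and 2106 in myelinating Schwann barcodes. Whether a vector UMI marks a neuron that took up the virus was not tested. Neurons with vector UMIs had 80.6 CPM of Gfra1 (76.6 to 84.7) against 63.7 CPM (62.4 to 65.1) in those without. Gfra2 stood at 147 CPM against 207 CPM, Gfra3 at 56.3 against 76.2 CPM, and Ret at 307 against 337 CPM. The subtypes carried the vector unequally: 17 of 32 Smr2 and Kit neurons (53.1%, 34.7 to 70.9), 25.0% of Mrgpra3 neurons (15.5 to 36.6), 9.69% of peptidergic neurons and 5.86% of C-LTMR neurons. The Smr2 and Kit subtype, with the largest vector share, had the lowest Ret level of the 10. That level rests on 21 UMIs, and its interval overlaps that of proprioceptors. Mrgpra3 neurons and proprioceptors, next by vector share (25.0% and 18.75%), had 352 and 26.2 CPM of Ret. The part of subtype makeup in the receptor differences was not tested.

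Glia of the ganglia divided the co-receptors in a different way from neurons. Myelinating Schwann barcodes had 671 CPM of Gfra1 (659 to 683) and a UMI in 65.4%, and 67.1% after thinning to 2000 UMIs. Satellite glia had 27.5 CPM, non-myelinating Schwann barcodes 33.5 CPM, fibroblasts 101 CPM (94.3 to 109) and macrophages 6.73 CPM. At the same 2000 UMIs the share with Gfra1 in macrophages, a class that should lack the gene, was 0.714%. Gfra2 was instead highest outside neurons in satellite glia, at 45.9 CPM (43.2 to 48.7), with 44.6 CPM in non-myelinating Schwann barcodes, 35.5 CPM in mural cells and 4.71 CPM in myelinating Schwann barcodes. Gfra3 was nearly limited among glia to non-myelinating Schwann barcodes, at 49.4 CPM (37.9 to 63.3) against 0.728 CPM in myelinating Schwann barcodes and 0.619 CPM in satellite glia. The non-myelinating and satellite gates each rest on 3 markers that were highest in their own class, of 6 and 5.

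The Schwann barcodes of the tendon also carried much Gfra1. After neurectomy 215 UMIs in 38 of 82 barcodes gave 660 CPM (575 to 755), and in sham 126 UMIs in 27 of 37 barcodes gave 561 CPM (467 to 667), a ratio of 1.18 (0.941 to 1.48). Thinned to 2000 UMIs, 56.1% (39.7 to 71.5) of 41 neurectomy and 44.0% (24.4 to 65.1) of 25 sham barcodes had the gene. Ret was at 0 UMIs in both, which allows up to 9.21 and 13.3 CPM at 3 counts.

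Gfra3, which was close to absent from the tendon elsewhere, was found in the Schwann barcodes of the sham library. That library held 19 UMIs in 6 of 37 barcodes (84.5 CPM, 50.9 to 132), and these were 19 of the 27 Gfra3 UMIs of the whole sham library. The neurectomy library held 0 in 82 Schwann barcodes, which allows up to 9.21 CPM at 3 counts, and the upper bound of the interval for neurectomy over sham was 0.148. Of the 9 Gfra3 UMIs of the whole neurectomy library, 7 lay in barcodes of no class, where sham held 0 (lower bound of the ratio 1.67), and over all barcodes the ratio was 0.552 (0.228 to 1.21). The 6 non-myelinating Schwann markers summed to 2702 CPM in the neurectomy and 1842 CPM in the sham Schwann barcodes. Each of the 6 was higher after neurectomy, from Scn7a at 353 against 320 CPM to Ngfr at 138 against 22.2 CPM. The part of the makeup of these gates in the Gfra3 difference was not tested. Both gates are small, and this class was under the 100 barcodes that the list of ratios needed.

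**Figure D3:**
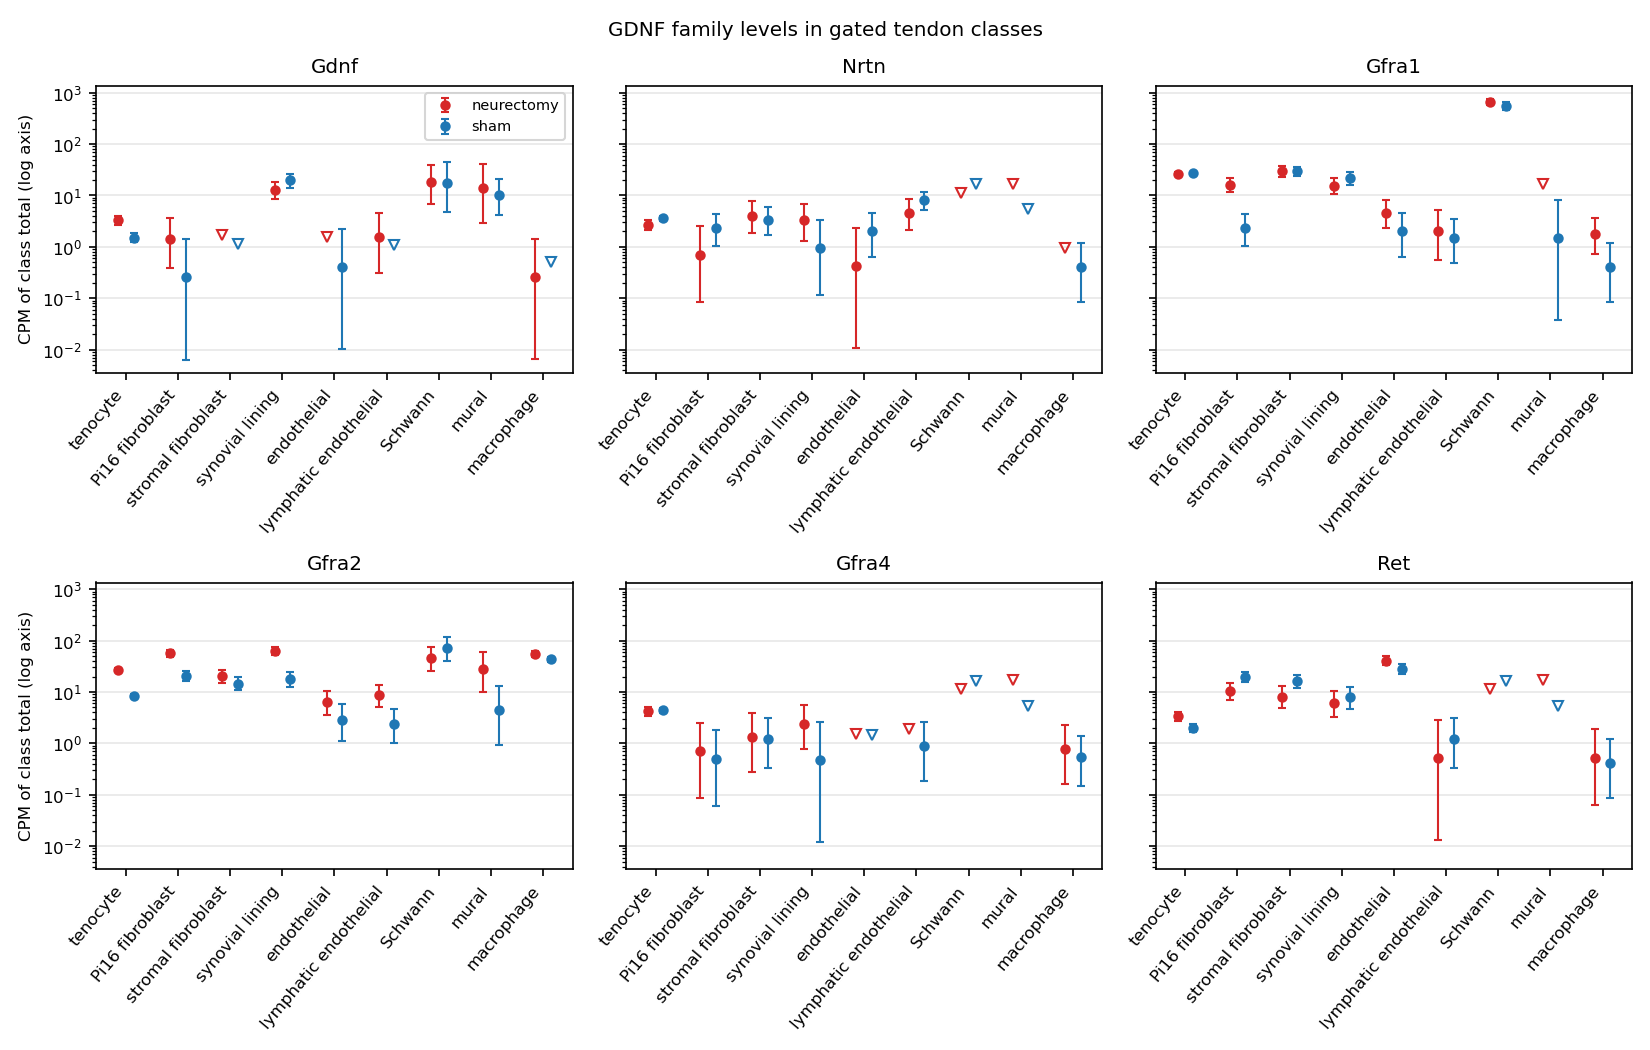
Levels of 6 members in 9 gated tendon classes, neurectomy in red and sham in blue. Points give CPM of the class total on a log axis with exact 95% Poisson intervals, and open triangles mark the upper limit where a class had 0 UMIs. Gfra1 stands highest in Schwann barcodes (660 and 561 CPM), Ret in endothelium (40.8 and 28.4 CPM), and Gfra2 is higher after neurectomy in tenocytes, Pi16 fibroblasts and synovial lining.

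Across the tendon, 17 pairs of a member and a class had at least 50 summed UMIs in a class with at least 100 barcodes in both libraries, and 5 pairs were at least 2-fold apart, all with the higher level after neurectomy. Other gates and filters gave 3 to 7 such pairs, some of them Ret in fibroblasts at less than 0.5 of the sham level. In tenocytes, 2 of 6 members entered were at least 2-fold apart, where 4.09% of 15830 genes entered were so in either direction and 2.92% were higher after neurectomy. In Pi16 fibroblasts 2 of 3 were, against 3.87% of 9784 genes (1.97% higher), and in synovial lining 1 of 3, against 2.45% of 8402 genes (1.46% higher). Among stromal fibroblasts 0 of 3 were (2.32% of genes), in endothelium 0 of 1 (2.16%) and in macrophages 0 of 1 (5.21%). Since the family was chosen with these contrasts known, nothing is read from these counts. Artn and Gfra3 entered in no class.

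**Figure D4:**
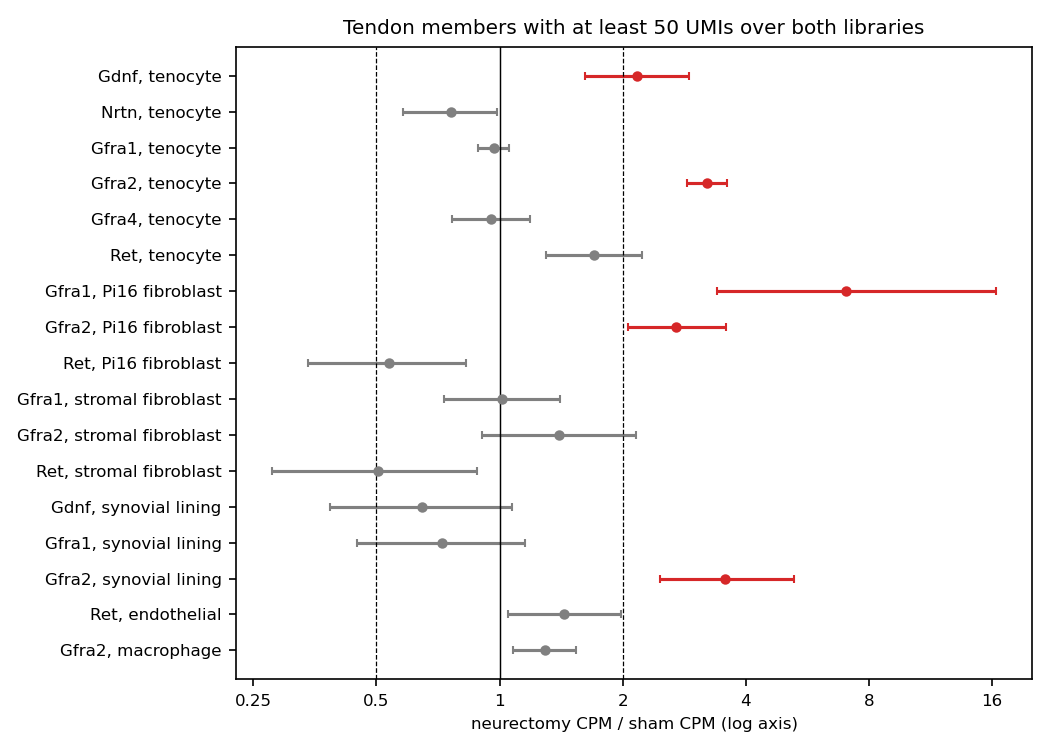
Ratio of neurectomy to sham CPM for the 17 pairs that entered, on a log axis with exact 95% intervals. Red points are at least 2-fold apart, dashed lines mark 2-fold either way, and the solid line marks equal levels. Gfra2 lies above 2-fold in 3 of the 5 classes where it entered, and Ret lies on both sides of equality.

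Gfra2 was the member with the widest difference in the largest gate. Neurectomy tenocytes held 766 UMIs in 428 of 6007 barcodes (27.1 CPM, 25.2 to 29.1) and sham tenocytes 562 UMIs in 376 of 12634 (8.42 CPM, 7.74 to 9.15), a ratio of 3.21 (2.88 to 3.59). The difference was present at every depth: the ratio was 2.80 (2.17 to 3.62) at 500 to 2000 UMIs per barcode, 2.95 (2.08 to 4.24) at 2000 to 5000 and 3.30 (2.89 to 3.77) at 5000 and over. Thinned to 2000 UMIs, 4.40% (3.59 to 5.33) of neurectomy and 1.52% (1.17 to 1.93) of sham tenocytes had a UMI, where endothelium had 1.47% and 0.987% and lymphatic endothelium 0% in both. The erythroid gate, a class that should lack the gene, had it in 10.2% (3.40 to 22.2) of 49 neurectomy and 0% (0 to 13.7) of 25 sham barcodes, so the tenocyte share after neurectomy was not above that of this gate. Without thinning, erythroid barcodes held 22 Gfra2 UMIs in 18 of 229 after neurectomy (56.5 CPM, 35.4 to 85.6) and 3 UMIs in 3 of 221 in sham (10.1 CPM, 2.08 to 29.5), a ratio of 5.60 (1.68 to 29.2), at medians of 1179 and 988 UMIs per barcode. Tenocyte markers summed to 2659 and 5186 CPM in these erythroid barcodes. Lymphatic endothelium held 17 UMIs in 4 of 466 barcodes and 8 UMIs in 8 of 395 (8.67 and 2.40 CPM), a ratio of 3.61 (1.48 to 9.67), and endothelium 6.31 and 2.80 CPM, a ratio of 2.25 (0.865 to 6.53). The Gfra2 level was thus higher after neurectomy also in some gates with few UMIs of it, although the endothelial interval includes equal levels. Mural barcodes had 27.8 and 4.41 CPM, from 6 and 3 UMIs. Schwann barcodes went the other way, at 46.1 and 71.2 CPM, a ratio of 0.647 (0.298 to 1.40). Dendritic barcodes did so too, at 66.5 and 98.2 CPM from 10 and 23 UMIs. The part of free RNA or mixed barcodes in the tenocyte ratio was not tested.

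Within sham, Xist-only tenocytes had 7.77 CPM and Y-only tenocytes 7.57 CPM, a ratio of 1.03 (0.788 to 1.36), an interval that includes equal levels. Against only those sham barcodes with Xist and no Y-linked UMI, the neurectomy ratio was 3.50 (3.08 to 3.98).

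**Figure D5:**
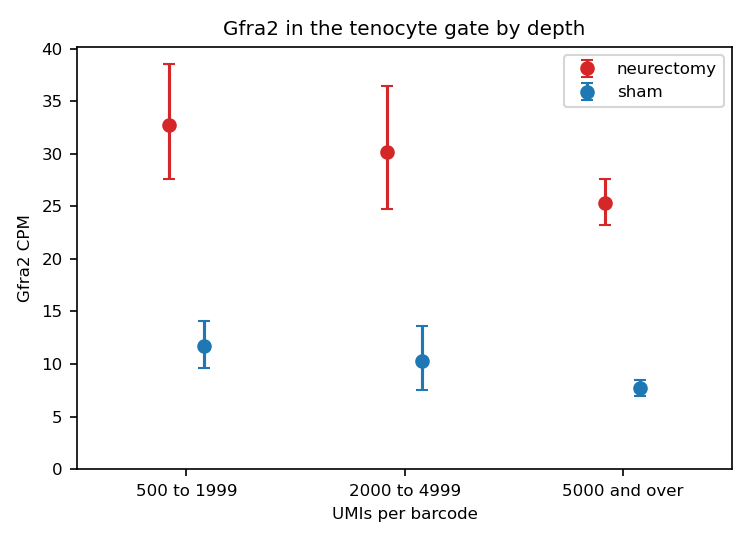
Gfra2 in tenocyte barcodes split by UMIs per barcode, as CPM with exact 95% Poisson intervals, neurectomy in red and sham in blue. The ratio of the libraries is 2.80, 2.95 and 3.30 from the shallowest to the deepest barcodes.

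The higher Gfra2 level reached beyond tenocytes. Pi16 fibroblasts, which express Dpp4, had 56.2 CPM (47.9 to 65.6) after neurectomy and 20.8 CPM (16.6 to 25.8) in sham, a ratio of 2.70 (2.06 to 3.57) that was 1.88 when the gate needed a 2-fold lead. Synovial lining had 63.2 CPM (52.9 to 74.8) and 17.8 CPM (12.6 to 24.4), a ratio of 3.55 (2.46 to 5.23), with a UMI in 46 of 340 and 15 of 156 barcodes, and 2.06 when 2 markers sufficed for the gate. Within sham, Xist-only barcodes of the synovial lining had 20.1 CPM of Gfra2 and the 20 Y-only barcodes 0 UMIs (lower bound of the ratio 1.35), and too few Xist-only barcodes were left, 82, for a ratio against neurectomy. Against Xist-only sham barcodes the Pi16 ratio was 2.62 (1.9998 to 3.47). Barcodes in no class had 40.6 and 15.3 CPM, a ratio of 2.66 (2.41 to 2.94). Stromal fibroblasts had 20.4 and 14.6 CPM, a ratio of 1.40 (0.908 to 2.15), and macrophages 55.5 and 43.1 CPM, a ratio of 1.29 (1.08 to 1.54). Tendon macrophages thus carried Gfra2 at a level above that of sham tenocytes in both libraries, with equal shares of 7.63% and 7.64% at 2000 UMIs. Ganglion macrophages, counted over another feature list, had 9.17 CPM. Xist-only and Y-only sham barcodes differed in Gfra2 in both of these classes, at 16.01 and 6.56 CPM in stromal fibroblasts, a ratio of 2.44 (1.01 to 7.13), and 39.4 and 62.6 CPM in macrophages, a ratio of 0.630 (0.443 to 0.921). Against Xist-only sham barcodes the neurectomy ratios were 1.32 (0.823 to 2.13) and 1.41 (1.17 to 1.70).

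Markers of other cells moved with some of these gates. In tenocytes the 9 skeletal muscle markers summed to 96.3 CPM after neurectomy and 11.5 CPM in sham, none at 0, and the 9 macrophage markers to 133 and 108 CPM. In synovial lining the macrophage markers summed to 127 and 45.9 CPM and the muscle markers to 69.8 and 9.83 CPM, and in Pi16 fibroblasts the muscle markers to 48.5 and 13.5 CPM and the 9 mural markers to 117.0 and 55.3 CPM. The skeletal muscle gate itself held 3 Gfra2 UMIs in 97 barcodes after neurectomy (22.8 CPM, 4.70 to 66.7). The part of these markers in the Gfra2 ratios was not tested.

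Gfra1 did not follow Gfra2. In tenocytes it stood at 26.3 CPM (24.4 to 28.3) after neurectomy and 27.2 CPM (25.9 to 28.5) in sham, a ratio of 0.968 (0.888 to 1.05), and in stromal fibroblasts at 29.8 and 29.4 CPM, a ratio of 1.01. Synovial lining had 15.6 and 21.5 CPM, a ratio of 0.722. Pi16 fibroblasts gave the widest ratio of all, 7.03 (3.40 to 16.3), from 46 UMIs after neurectomy and 9 in sham, but 26 of the 46 UMIs came from 1 barcode, and the ratio of means over barcodes was 1.90. Within sham tenocytes, the Xist-only barcodes had 29.3 CPM and the Y-only barcodes 20.9 CPM, a ratio of 1.40 (1.20 to 1.65). In sham stromal fibroblasts these were 34.9 and 7.65 CPM, a ratio of 4.57 (2.11 to 11.8). Against Xist-only sham barcodes the neurectomy ratios were 0.899 (0.821 to 0.984) in tenocytes and 0.839 (0.594 to 1.18) in stromal fibroblasts. With stromal fibroblasts gated among barcodes of at least 5000 UMIs the ratio was 1.45 (1.05 to 1.99), and 1.04 (0.713 to 1.50) for such barcodes of the main gate. Of the tenocytes with any of Gfra1 to Gfra3, 62 of 794 after neurectomy and 86 of 1294 in sham had both Gfra1 and Gfra2. Taken separately, Gfra1 was found in 428 and Gfra2 in 428 of 6007 tenocytes after neurectomy. In sham these were 1003 and 376 of 12634. Pairing beyond these separate shares was not tested.

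The genes most like Gfra1 over 11 tendon classes of both libraries (22 points, 7921 genes) were Phgdh, which starts serine synthesis (r = 0.94), Nfasc, an adhesion gene of nerve (0.92), and Epb41l4b (0.91). Gfra2 had weaker followers, Pgd of the pentose phosphate pathway (0.84), Cdk2ap2 (0.80) and Tusc3 (0.76). Points of the same library share its depth and free RNA.

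Gfra4 was a low, even transcript of tenocytes, at 4.21 CPM (119 UMIs) after neurectomy and 4.41 CPM (294 UMIs) in sham, a ratio of 0.955. In Pi16 and stromal fibroblasts, synovial lining, lymphatic endothelium and macrophages it lay at 2.36 CPM or less in both libraries.

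Ret was highest in the tendon in blood vascular endothelium. After neurectomy 97 UMIs in 72 of 752 barcodes gave 40.8 CPM (33.1 to 49.7), and in sham 71 UMIs in 46 of 552 barcodes gave 28.4 CPM (22.2 to 35.8), a ratio of 1.44 (1.05 to 1.98). By depth the endothelial ratio was 1.37 at 500 to 2000 UMIs per barcode, 2.12 at 2000 to 5000 and 1.16 (0.746 to 1.79) at 5000 and over. Lymphatic endothelium had 0.510 and 1.20 CPM. At 2000 UMIs per barcode 8.85% (6.05 to 12.4) and 5.92% (3.55 to 9.20) of endothelial barcodes had Ret, against 0% and 0.372% of macrophages. Skeletal muscle markers in the endothelial gate summed to 137 CPM after neurectomy and 12.4 CPM in sham, and their part in the ratio was not tested. Ganglion endothelium, counted over another feature list, had 6.00 CPM (4.28 to 8.16). Of the Ret-positive endothelial barcodes of the tendon, 3 of 72 after neurectomy and 2 of 46 in sham had any of Gfra1, Gfra2 or Gfra3. Over all endothelial barcodes these were 24 of 752 and 11 of 552. Pairing beyond these shares was not tested.

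Ret in fibroblasts and tenocytes went in opposite directions between the libraries. Pi16 fibroblasts had 10.5 CPM (7.07 to 15.0) after neurectomy and 19.5 CPM (15.4 to 24.4) in sham, a ratio of 0.536 (0.339 to 0.827), while Gfra2 in the same barcodes was higher after neurectomy. Stromal fibroblasts had 8.14 and 16.1 CPM, a ratio of 0.505 (0.278 to 0.878). Tenocytes had 3.39 CPM (2.75 to 4.14) and 1.99 CPM (1.67 to 2.36), a ratio of 1.70 (1.30 to 2.23). The opposite directions were not tested, and none of these ratios reached 2-fold, although each did so under some alternatives. The tenocyte ratio was 2.36 against only the sham barcodes with Xist and no Y-linked UMI and 2.04 with a higher minimum of genes per barcode. Sham tenocytes had 4.95 CPM of Ret at 500 to 2000 UMIs per barcode, 1.48 CPM at 5000 and over and 1.49 CPM where Xist-only. Depth and sex were not separated there, and at 5000 UMIs and over the tenocyte ratio was 1.46 (0.983 to 2.13). The Pi16 ratio was between 0.398 and 0.477 with 4 markers, with a looser lead, at 5000 UMIs or more and at no more than 5% mitochondrial UMIs. The stromal ratio was between 0.446 and 0.495 with 2 markers, with a lead of 2 times, at no more than 5% mitochondrial UMIs, with the higher minimum of genes and as a mean over barcodes. The stromal gate is the least distinct, with 4 and 3 of its 7 markers highest in it. Of the Ret-positive Pi16 barcodes, 9 of 23 after neurectomy and 8 of 44 in sham also had a UMI of Gfra1, Gfra2 or Gfra3. Over all Pi16 barcodes these were 64 of 288 and 43 of 261, and pairing beyond these shares was not tested.

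The wider pathway was read through 32 further genes: other ligands and receptors of the family, adaptors of RET, and genes known to answer its signal. In tenocytes 29 of the 32 entered, 1 was at least 2-fold higher and 0 were lower after neurectomy, with a median log2 ratio of 0.08 beside 0.08 over all genes entered. The 1 gene was Etv4, a transcription factor gene known to be induced by RET and by FGF receptors, at 19.8 CPM after neurectomy and 8.33 CPM in sham, a ratio of 2.37 (2.10 to 2.67). In Pi16 fibroblasts 1 of 20 was higher, Sdc3, a syndecan that can bind GDNF (ratio 2.54), and in synovial lining 0 of 22 were apart. Stromal fibroblasts had 1 of 23 higher, Dok6 (2.22), and 1 lower, Dok5 (0.496), both RET adaptors. In endothelium 2 of 21 were higher, Gdf15 (2.16) and Ncam1, an alternative GDNF receptor (2.40), and in lymphatic endothelium 1 of 20, Gdf15 (246.7 and 92.6 CPM, ratio 2.66), against 2.74% of all genes there. In macrophages 3 of 23 were higher, Gas1 (2.53), Ncam1 (4.36) and Grb10 (4.10), and markers of tenocytes and of synovial lining in that gate were also higher after neurectomy, at 502 against 201 CPM and 259 against 104 CPM, whose part was not tested. Among erythroid barcodes 1 of 9 was lower, Gas1 (0.446), against 8% of genes at least 2-fold apart. The same share of all genes was 4.09% in tenocytes, 3.87% in Pi16 fibroblasts, 2.45% in synovial lining and 2.32% in stromal fibroblasts. It was 2.16% in endothelium and 5.21% in macrophages. The counts of pathway genes are small, and nothing is read from them.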

How the data were processed

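Droplet single-cell libraries of mouse Achilles tendon (1 after sural neurectomy, 1 after sham surgery) and of pooled dorsal root ganglia (1) were used. Per the file headers, Cell Ranger 8.0.1 made the deposited matrices, which hold raw UMI counts as whole numbers. The submitters' processing notes list both mm10 and GRCm39 with no role for either, so no coordinate of a counted gene is printed. No aligner setting is given in the sources used here.

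Barcodes under 500 genes or over 15% mitochondrial UMIs were left out. Scrublet (scanpy 1.11.5) removed 565 DRG barcodes (2.52%) at its automatic threshold. It marked 0 in both tendon libraries, where it did not work and only the lead between class scores leaves out mixed barcodes. Each marker was log1p of counts per 10000 divided by its 90th percentile among barcodes with a UMI and clipped at 1, and class scores were means over markers. A class needed 3 markers (2 for neuron subtypes) and a lead of 1.5 times. UMIs were summed per class and scaled to 1000000. Ratios have exact conditional binomial, counts exact Poisson and shares Clopper-Pearson 95% intervals, for counting error only. A pair entered at 50 summed UMIs and 100 barcodes in both libraries, and called means at least 2-fold. The limit behind a count of 0 is 3 counts. No test between groups was made, since each group is 1 library and barcodes are not replicates. The ratio intervals were tried only on Poisson counts simulated from tenocyte sums, the model they assume. UMIs clustered in few barcodes were not simulated, so that trial does not cover them.

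All 8 members are named, pathway genes at least 2-fold apart are named, and the 3 genes most like a receptor are those with the highest Pearson correlation among genes with at least 50 CPM in 1 class, over tendon classes with at least 30 barcodes in both libraries. The members, markers and lists were chosen with earlier results of these data known. The depth ranges, the split of sham barcodes by Xist and Y-linked UMIs, the thinning to 2000 UMIs and the 30-barcode limit were chosen after seeing the data. Alternatives changed the markers and lead a gate needs, depth, mitochondrial and gene limits, doublets, the sham barcodes used, the weighting of barcodes and the entry limit.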

Additional observations from a re-analysis of the deposited data

Results flagged for a closer look

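Ret went in opposite directions between gated tendon classes under the same contrast. The ratio of neurectomy to sham CPM was 1.70 (1.30 to 2.23) in tenocytes, from 96 and 133 UMIs, and 1.44 (1.05 to 1.98) in endothelium, from 97 and 71 UMIs. It was 0.536 (0.339 to 0.827) in Pi16 fibroblasts, from 30 and 77 UMIs, and 0.505 (0.278 to 0.878) in stromal fibroblasts, from 18 and 52 UMIs. The difference between classes was not tested, since each class came from 1 library per group. In both fibroblast gates the median depth per barcode was also lower after neurectomy, 4746 against 16297 and 2397 against 9079 UMIs. Among fibroblasts with at least 5000 UMIs in the same gates the ratios were 0.492 (0.296 to 0.790) and 0.459 (0.222 to 0.879). Among tenocytes and endothelium of that depth they were 1.46 (0.983 to 2.13) and 1.16 (0.746 to 1.79), intervals that include equal levels. The endothelial ratio was 1.24 (0.836 to 1.87) against sham barcodes with Xist and no Y-linked UMI. With a lead of 2 times it was 1.32 (0.915 to 1.92).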

How the results depend on the processing

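No paired analysis was possible because there was 1 library per group. Of 170 alternative values of the 17 tendon ratios, 161 stayed within the interval of the main value and none of the called ratios changed direction. The 13 values with entry also at 10 CPM are among the 161. That setting changes which pairs enter and not a ratio, so it is no check of a ratio, here or in the ranges below. The number of pairs at least 2-fold apart was 5 of 17, and 3 of 13 with a lead of 2 times. It was 7 of 17 at no more than 5% mitochondrial UMIs and again with a higher minimum of genes per barcode, 6 of 18 where a gate needed 2 markers, 6 of 17 with the looser lead, 4 of 13 where entry also needed 10 CPM, and 5 in the others. With that lead the Gfra2 ratio was 3.84 in tenocytes and 1.88, under 2-fold, in Pi16 fibroblasts. In synovial lining it was 2.06 where a gate needed only 2 markers. Over 11 alternatives the tenocyte Gfra2 ratio lay between 2.92 and 3.84, while the synovial ratios could be given in 7 alternatives only, because too few barcodes were left in the others. Taken as means over barcodes, the Pi16 Gfra1 ratio was 1.90 in place of 7.03, and the synovial ratios of Gdnf and Gfra1 were 1.82 and 1.66 in place of 0.647 and 0.722, and the cause was not tested. Ret in tenocytes was 2.36 against sham barcodes with Xist and no Y-linked UMI, and over 11 alternatives Ret lay between 0.398 and 0.704 in Pi16 and between 0.446 and 0.615 in stromal fibroblasts.

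Of 384 alternative neuron levels, 316 stayed within their interval. Gfra3 in peptidergic neurons, 214 CPM in the main gate, was 203 CPM with the looser lead, 234 CPM with a lead of 2 times and 208 CPM as a mean over barcodes. Gfra2 in C-LTMR neurons, 641 CPM, was 570.0 CPM at no more than 5% mitochondrial UMIs. The subtype with the highest Ret, Gfra1, Gfra2 and Gfra3 was the same in all 8 alternatives, while that of Gfra4 became Smr2 and Kit with a lead of 2 times and with means over barcodes, and that of Nrtn became cold with a lead of 2 times. That lead left 2 silent-type, 3 Smr2 and Kit and 14 cold neurons, so the order of Nrtn and Gfra4 there rests on too few neurons to be read. Depth limits the ligands, since Artn and most Gdnf levels rest on fewer than 100 UMIs.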

Other observations

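Gfral, the hindbrain receptor of the distant family member GDF15 that also signals through RET, was counted 36 times in the 3375 ganglion neurons, and 25 of these UMIs lay in C-LTMR neurons (1.56 CPM), the subtype with the most Ret and Gfra2. Mrgprd and peptidergic neurons, with more barcodes, held 1 UMI each. The level is low, and at most 3 Gfral UMIs lay in any gated class of either tendon library. Gdf15, its ligand gene, stood at 1020 CPM in ganglion macrophages and 338 CPM in ganglion endothelium, and in the tendon at 246.7 CPM after neurectomy and 92.6 CPM in sham in lymphatic endothelium. Tendon macrophages had 67.4 and 48.0 CPM of Gdf15 and tenocytes 2.55 and 2.26 CPM.

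Ganglion barcodes in no class held 1060 Ret UMIs in 130 of 2463 barcodes and 464 Gfra3 UMIs in 60 barcodes (94.1 and 41.2 CPM). Among neurons in no subtype, 984 in all, Gfra1 stood at 110 CPM, above its level in every subtype except Mrgpra3, and Ret at 231 CPM.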
